A study of Mus musculus with 20 samples.

Results

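*Arhgap29*, *Fam19a1*, *Tec*, *Dock5*, *Fam210b* and *Wbscr17* are 6 of the 47729 genes counted in 20 RNA-Seq libraries of mouse brain, and 6 of the 15661 tested between hippocampus and cortex. They were chosen by their *P* values between the regions, which were among the smallest of these data, and because they belong to no channel, receptor or adhesion family. Their regional difference is therefore described here and not tested. The study asked what extra *Ube3a*, the gene of an E3 ubiquitin ligase, does to gene expression in the developing cortex and hippocampus. Both tissues were taken from 5 WT and 5 *Ube3aOE* pups of strain C57Bl/6J at postnatal day 7, so that 4 groups of 5 libraries each resulted. *Ube3aOE* mice, called Ube3a+2 in the study, carry *Ube3a* on a bacterial artificial chromosome transgene on top of their own gene, and the WT pups carry no transgene. The labels give 3 females and 2 males among the WT mice, and 2 females and 3 males among the *Ube3aOE* mice. The study mapped the insertion of the line it characterized most to chromosome 3, which also holds *Arhgap29*. The distance between the 2 was not analysed here.

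The 6 genes have different jobs. Small GTPases shape the actin skeleton: *Arhgap29* encodes a GTPase-activating protein that switches such proteins off and that works with Rasip1 and Rap1 in blood vessels, whereas *Dock5* encodes an exchange factor that switches Rac on, together with ELMO proteins. *Tec* encodes a cytoplasmic tyrosine kinase best known from blood cells. *Fam19a1*, now *Tafa1*, encodes a small secreted chemokine-like protein made mainly in brain. *Fam210b* encodes a mitochondrial inner-membrane protein known from heme synthesis in red cell precursors, and *Wbscr17*, now *Galnt17*, a member of the Golgi enzyme family that starts O-linked sugar chains on proteins. Cortex and hippocampus are both cortical tissues of layered excitatory neurons, and they differ in which neuron types they hold. In bulk tissue, fewer cells of a type and less RNA per cell cannot be told apart.

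In the GENCODE annotation of GRCm38, all 6 are protein-coding. *Arhgap29* (ENSMUSG00000039831) lies at chr3:121952541-122016753 on the plus strand, *Fam210b* (ENSMUSG00000027495) at chr2:172345565-172355749 on the plus strand and *Fam19a1* (ENSMUSG00000059187) at chr6:96113154-96657198 on the plus strand. *Tec* (ENSMUSG00000029217) lies at chr5:72755716-72868483, *Dock5* (ENSMUSG00000044447) at chr14:67752135-67933442 and *Wbscr17* (ENSMUSG00000034040) at chr5:130872082-131308497, each on the minus strand. None shares an exon base with another annotated gene, and no gene overlapping their introns reached more than 0.117 CPM (counts scaled to library size) in a library.

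RefSeq start regions on GRCm38.p6 were matched for 5 of the 6 genes, all but *Dock5*. For *Wbscr17* the region held no 100 bases free of annotated exons, so 4 genes are shown. These are shown because genes that are low in hippocampus (*Arhgap29*, *Tec*, *Fam19a1*) and a gene that is high there (*Fam210b*) can be read side by side. Each line holds the last 100 bases before the start that contain no annotated exon, 5′ to 3′ on the strand of the gene. Capitals mark exact matches, on either strand, to the GC box GGGCGG and the CCAAT box CCAAT. Matches to the TATA box TATAAA and to the cAMP response element TGACGTCA were also searched, and neither had a match in these windows. *Arhgap29* has a pair of RefSeq starts, with windows at chr3:121953129-121953228 and chr3:121967706-121967805, both on the plus strand. The windows of *Tec* (chr5:72868484-72868583, minus strand), *Fam19a1* (chr6:96113054-96113153, plus strand) and *Fam210b* (chr2:172345465-172345564, plus strand) follow.
Arhgap29, first start: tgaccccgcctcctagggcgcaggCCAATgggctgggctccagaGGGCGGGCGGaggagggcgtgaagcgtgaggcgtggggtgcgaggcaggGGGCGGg
Arhgap29, second start: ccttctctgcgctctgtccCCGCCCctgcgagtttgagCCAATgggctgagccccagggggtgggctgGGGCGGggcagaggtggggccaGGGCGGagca
Tec: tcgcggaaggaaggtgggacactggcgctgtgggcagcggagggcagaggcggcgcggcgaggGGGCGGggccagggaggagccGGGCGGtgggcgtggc
Fam19a1: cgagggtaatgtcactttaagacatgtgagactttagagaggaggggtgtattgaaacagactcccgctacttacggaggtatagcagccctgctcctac
Fam210b: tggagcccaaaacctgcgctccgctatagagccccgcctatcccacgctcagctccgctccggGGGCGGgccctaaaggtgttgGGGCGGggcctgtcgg
The first window of *Arhgap29* was 76% G or C with 9 CpG dinucleotides, 3 GC boxes and 1 CCAAT box, and the second was 73% G or C with 5 CpG, 3 GC boxes and 1 CCAAT box. The window of *Tec* was 79% G or C with 12 CpG and 2 GC boxes, and that of *Fam210b* 70% with 9 CpG and 2 GC boxes. *Fam19a1* stood apart, at 49% G or C with 3 CpG and no GC or CCAAT box. Its window held 1 match to the E-box CANNTG, which was counted without capitals. Over 32844 start windows of the same length, the median was 55% G or C with 3 CpG. A GC box was present in 24.7% of these windows, a CCAAT box in 18.9%, a TATA box in 5.56%, a cAMP response element in 1.15% and an E-box in 34.5%. A match describes letters only.

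Each library held 14191093 to 16752326 counts on genes. *Ube3a* averaged 61.1 ± 5.71 CPM (SD, *n* = 5) in WT cortex and 152 ± 27.2 in *Ube3aOE* cortex, and 64.7 ± 8.21 in WT hippocampus and 162 ± 24.9 in *Ube3aOE* hippocampus. The sex-linked counts of 2 WT mice, mice 3 and 5, went against their labelled sex. All 7 hippocampal marker genes were higher in hippocampus, and 5 of 7 neocortical markers were lower. In 4 libraries, though, the summed hippocampal and neocortical markers stood apart. The 7 hippocampal markers summed to 194 and 188 CPM in *Ube3aOE* cortex of mice 8 and 9, against 87.0 to 118 in WT cortex. They summed to 325 CPM in WT hippocampus of mouse 2 and 367 in *Ube3aOE* hippocampus of mouse 9, the lowest of their groups. The highest sums of these groups were 514 and 500.5, and the next lowest were 437 in mouse 1 and 396 in mouse 7. Mouse 9 was thus close to its group by hippocampal markers. Its neocortical markers summed to 375 CPM, against 257 to 298 in the rest of its group. No hippocampal or neocortical marker was at 0 in any library. Results that rest on these 4 libraries are given with and without them, except the comparison of labelled sex. Thalamic markers stood apart in other libraries, with sums of 1350, 659 and 584 CPM in hippocampus of mice 10, 7 and 4. Choroid plexus markers summed to 1970 CPM in hippocampus of mouse 7. The fits without the 4 libraries keep these, so other tissue is not removed by them.

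The 4 genes that were higher in cortex were *Dock5*, *Tec*, *Arhgap29* and *Fam19a1*, in order of the size of the difference. Among all genes tested, 50.9% were called between the regions, by an adjusted *P* under 0.05 in edgeR, 25.6% as lower in hippocampus and 25.3% as higher. The libraries of the 2 regions did not overlap for 9.27% of genes. The choice of the 6 genes fixes that they are among both, so nothing follows from that. By *P*, *Arhgap29* had rank 2, *Fam210b* 6, *Dock5* 7, *Tec* 8, *Fam19a1* 10 and *Wbscr17* 11. *Chst11*, a sulfotransferase gene of no such family at rank 9 (log2 difference 1.06), was not in the group. Just outside stood *Camk1* at rank 12 (-0.97), a kinase gene. A small *P* did not mean a large difference: by its size *Dock5* had rank 135 of 15661 and *Fam19a1* rank 1633.

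*Dock5* had the largest difference of the 6. In cortex it stood at 13.6, 7.70, 9.46, 14.2 and 14.1 CPM in WT mice 1 to 5 and at 10.0, 10.1, 8.23, 9.15 and 15.8 in *Ube3aOE* mice 6 to 10. In hippocampus it stood at 1.29, 1.66, 1.48, 1.95 and 1.44 CPM in the WT mice and at 1.61, 2.17, 1.42, 2.83 and 1.98 in the *Ube3aOE* mice. The regions did not overlap, and the lowest cortex library was 2.72-fold above the highest hippocampus library. The hippocampal values rest on 22 to 44 reads a library. The fitted log2 difference, hippocampus minus cortex, was -2.66 ± 0.156 (SE), or 6.33-fold. Within a mouse, cortex exceeded hippocampus by 3.23-fold in mouse 9 to 10.5-fold in mouse 1, the widest range among the 6 genes.

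*Tec* followed the same order of tissues at lower counts. In cortex it stood at 8.68, 7.40, 6.41, 9.43 and 9.03 CPM in the WT mice and at 7.24, 8.92, 5.31, 6.47 and 7.79 in the *Ube3aOE* mice. In hippocampus it stood at 1.23, 1.97, 1.60, 2.07 and 1.67 CPM in the WT mice and at 1.61, 1.75, 1.83, 1.74 and 2.58 in the *Ube3aOE* mice. The hippocampal libraries held 21 to 43 reads of *Tec* and lay below every cortex library by at least 2.06-fold. The log2 difference was -2.08 ± 0.123, or 4.23-fold, and within a mouse it ran from 2.90-fold to 7.05-fold. *Tec* is known from blood cells, and the 7 microglial markers summed to 110 to 170.4 CPM in cortex and 129.9 to 207 in hippocampus. Of the 7 markers, 5 were called higher in hippocampus, beside 25.3% of all genes. The sums of the 2 tissues overlapped, and which cells hold the *Tec* reads was not tested.

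*Arhgap29* was well counted in both tissues. In cortex it stood at 44.5, 40.8, 47.7, 49.4 and 45.1 CPM in the WT mice and at 42.2, 54.2, 38.5, 40.8 and 52.6 in the *Ube3aOE* mice. In hippocampus it stood at 18.3, 20.1, 14.4, 19.5 and 14.0 CPM in the WT mice and at 16.7, 17.9, 16.1, 17.8 and 17.6 in the *Ube3aOE* mice. Every hippocampal library lay at least 1.92-fold below every cortical one. The log2 difference was -1.40 ± 0.076, or 2.64-fold, at -1.40 in WT and -1.41 in *Ube3aOE* mice. *Arhgap29* is known from blood vessels, and the 8 endothelial markers summed to 99.1 to 192 CPM in cortex and 127 to 187 in hippocampus. Of those 8, 1 was called lower in hippocampus and 7 were not called, with a median log2 difference of -0.03. Over all genes 25.6% were called lower and 25.3% higher. Which cells hold the *Arhgap29* reads was not tested.

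*Fam19a1* had the smallest and the most even difference. In cortex it stood at 65.0, 65.3, 59.3, 65.3 and 60.5 CPM in the WT mice and at 67.1, 52.5, 57.3, 62.5 and 62.2 in the *Ube3aOE* mice. In hippocampus it stood at 37.6, 35.7, 34.7, 36.4 and 36.7 CPM in the WT mice and at 39.0, 31.2, 33.7, 32.0 and 36.5 in the *Ube3aOE* mice. The regions were separated by a gap of 1.35-fold between their nearest libraries. The log2 difference was -0.80 ± 0.048, or 1.75-fold. Its SD over the 10 mice was 0.0715, against 0.232 for *Arhgap29* and 0.520 for *Dock5*, and each mouse lay between 1.65-fold and 1.96-fold. Because the genes were chosen by *P*, a gene of small difference had to be even to be among them. Counting alone also varies less here, by 3.97% in WT hippocampus, against 20.0% for *Dock5*.

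*Wbscr17* and *Fam210b* were the 2 genes higher in hippocampus. *Wbscr17* stood at 48.6, 40.9, 49.3, 40.7 and 42.1 CPM in cortex of the WT mice and at 42.4, 47.8, 52.3, 64.0 and 51.4 in cortex of the *Ube3aOE* mice. In hippocampus it stood at 149.8, 104, 151, 149 and 157 CPM in the WT mice and at 167, 143, 147, 105 and 139.6 in the *Ube3aOE* mice. The tissues did not overlap, but WT mouse 2 and *Ube3aOE* mouse 9 lay well below the other hippocampal libraries, and mouse 9 was also the highest in cortex. The log2 difference was 1.56 ± 0.090, or 2.95-fold, and ran from 1.64-fold in mouse 9 to 3.94-fold in mouse 6.

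*Fam210b* showed the same mice low in hippocampus. In cortex it stood at 29.0, 29.2, 38.3, 26.3 and 29.6 CPM in the WT mice and at 32.7, 29.8, 33.1, 35.6 and 29.2 in the *Ube3aOE* mice. In hippocampus it stood at 75.6, 60.6, 85.6, 76.6 and 82.5 CPM in the WT mice and at 75.6, 78.0, 80.2, 59.2 and 77.4 in the *Ube3aOE* mice. The gap between the nearest libraries of the tissues was 1.55-fold. The log2 difference was 1.26 ± 0.073, or 2.40-fold, with 1.66-fold in mouse 9 as the smallest. *Fam210b* is known from red cell precursors, and the 5 erythroid markers summed to 83.3 to 250.3 CPM in cortex and 98.0 to 199 in hippocampus. None of the 5 was called, beside 50.9% of all genes called either way. Which cells hold the *Fam210b* reads was not tested.

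**Figure D1:**
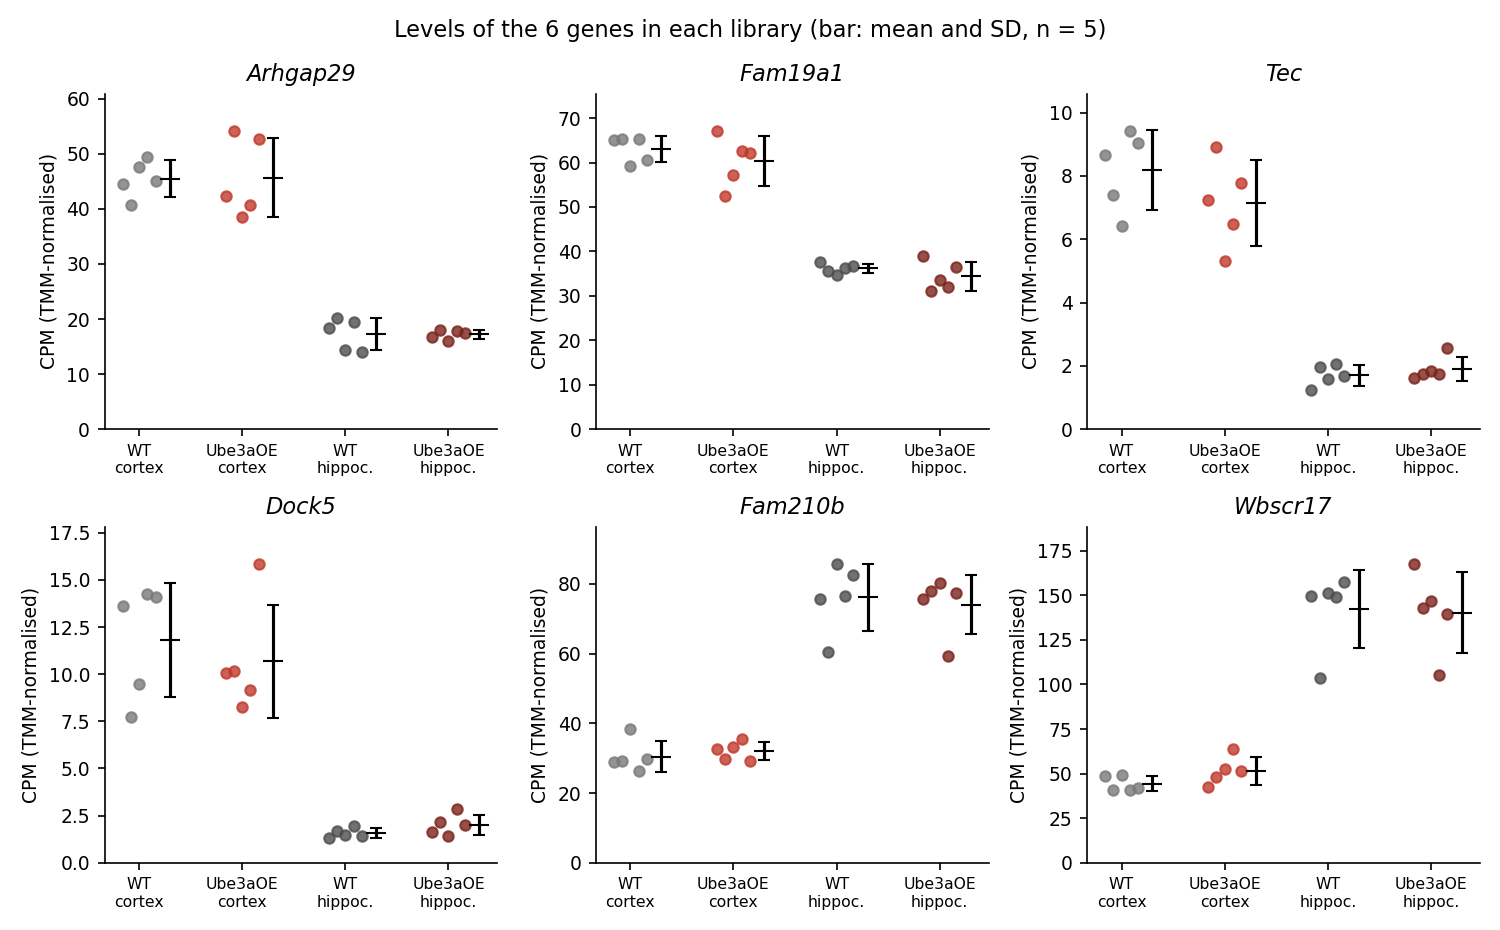
TMM-normalised CPM of the 6 genes (vertical axes, starting at 0) in each library of the 4 groups (horizontal axes), with 1 point per mouse and a bar for the mean and SD (n = 5). For each gene the 10 cortex and 10 hippocampus libraries do not overlap, while the WT and Ube3aOE libraries of a tissue do.

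All 6 genes kept their direction in 10 of 10 mice. For each gene the libraries of the 2 regions did not overlap, which fixes this, so nothing is added by it. The mice did not differ alike in every gene, however. Mouse 9 had the smallest difference of the 10 mice for *Wbscr17* (log2 0.72), *Fam210b* (0.74) and *Dock5* (-1.69). For *Fam19a1* the same mouse had the largest difference (-0.97), and mouse 2 the next largest (-0.87). Mouse 2 had the smallest difference for *Arhgap29* (-1.02) and the second smallest for *Wbscr17* (1.34), *Fam210b* (1.06) and *Dock5* (-2.21). For *Tec* the smallest difference was that of mouse 8 (-1.54).

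**Figure D2:**
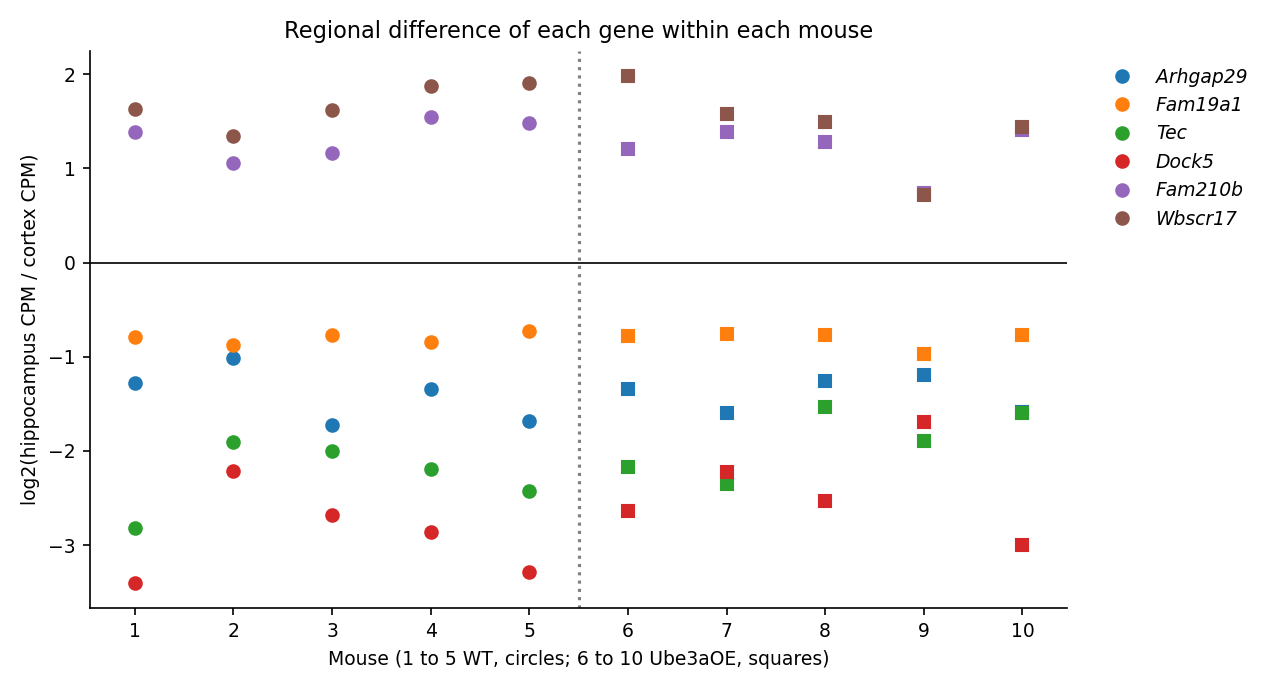
Log2 ratio of hippocampus to cortex CPM within each mouse (vertical axis) for mice 1 to 10 (horizontal axis; WT circles, Ube3aOE squares), with a colour for each gene. Fam19a1 stays between -0.97 and -0.72, whereas Dock5 runs from -3.40 to -1.69, and mouse 9 brings Wbscr17 and Fam210b to 0.72 and 0.74.

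Of the 4 libraries that stood apart in hippocampal and neocortical markers, 3 also held extreme values of *Wbscr17*: the hippocampus of mice 2 and 9 and the cortex of mouse 9. The fourth, the cortex of mouse 8, had 52.3 CPM of *Wbscr17*, close to the 51.4 CPM of mouse 10. The hippocampal marker sums of 325 and 367 CPM belonged to the 2 hippocampal libraries with 104 and 105 CPM of *Wbscr17* and with 60.6 and 59.2 CPM of *Fam210b*. Their neocortical marker sums were 471 and 375 CPM, against 252 to 298 in the other hippocampal libraries, and the striatal sum of mouse 9 was 516 CPM, against 42.2 to 67.4. *Fam19a1* stood at 35.7 and 32.0 CPM in these 2 libraries, within the range of the other 8. Its regional difference is small, at 1.75-fold, so 2 libraries cannot show whether *Fam19a1* moved with these sums. The part of other tissue in these values was not tested. Without the 4 libraries, the log2 difference was 1.72 for *Wbscr17*, 1.37 for *Fam210b*, -1.50 for *Arhgap29*, -2.17 for *Tec* and -2.83 for *Dock5*, each larger in size than with all 20. It was -0.79 for *Fam19a1*.

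**Figure D3:**
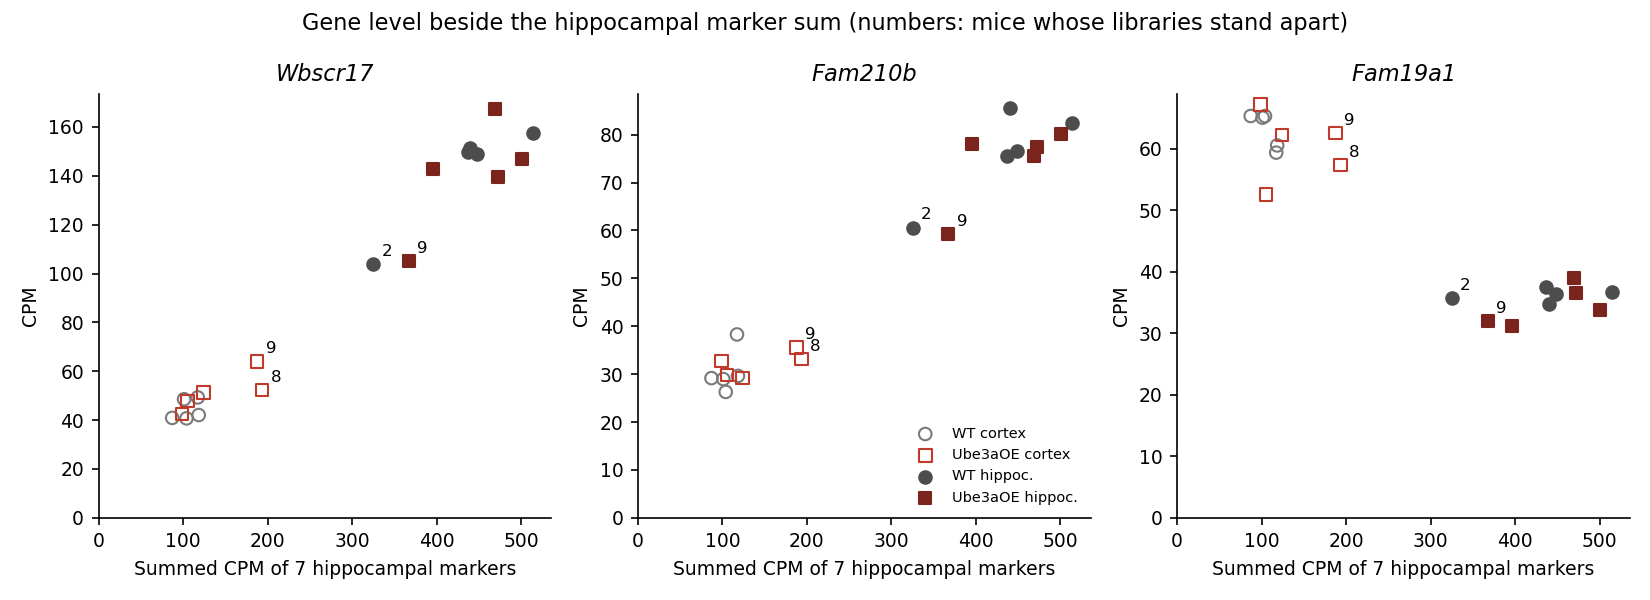
CPM of Wbscr17, Fam210b and Fam19a1 (vertical axes) against the summed CPM of 7 hippocampal markers (horizontal axes), with 1 point per library and mouse numbers at the 4 libraries that stand apart. The hippocampal libraries of mice 2 and 9 have sums of 325 and 367 and the lowest Wbscr17, at 104 and 105 CPM, while their Fam19a1 lies among the other hippocampal libraries.

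Levels between genes were compared as RPKM, which is CPM per kilobase of exon. In cortex, *Fam19a1* was the highest of the 6 at a mean of 14.6 RPKM, followed by *Fam210b* at 8.65, *Arhgap29* at 5.17, *Wbscr17* at 5.10, *Tec* at 2.05 and *Dock5* at 0.924. The libraries of *Arhgap29* and *Wbscr17* overlapped, and the other neighbours in this order did not. In hippocampus, *Fam210b* led at 20.8 RPKM, before *Wbscr17* at 15.0, *Fam19a1* at 8.38, *Arhgap29* at 1.96, *Tec* at 0.482 and *Dock5* at 0.147. There *Fam210b* and *Wbscr17* overlapped. The order of the 6 genes thus differed between the tissues, while *Tec* and *Dock5* were the lowest in both.

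The genes with the nearest profiles were found by the root mean square difference of log2 CPM, centred on each gene's mean, over the 20 libraries. These libraries share the same regional split, so the measure is a description. *Cux2*, a transcription factor gene of upper cortical layers, was nearest to *Tec*, at 0.184. It stood at 164 CPM in cortex and 41.3 in hippocampus. For *Dock5* the nearest were *Rorb* (0.321), which marks layer 4, *Pou3f2* (0.364), an upper-layer factor, and *Cux2* (0.388). *Tec* also had *Tmem200c* (0.268) and *Pou3f2* (0.272). *Cux2* and *Rorb* are in the list of neocortical markers. With a smaller prior count, *Cux2* was no longer among the first 3 for *Dock5*, and the other genes stayed for each of the 6.

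For *Wbscr17* the nearest genes were *Zhx2* (0.136), a homeobox gene, *Grik4* (0.147), a kainate receptor gene, and *Golm1* (0.157), a Golgi membrane protein gene. *Grik4* is 1 of the 7 hippocampal markers and had the smallest *P* of all genes between the regions. *Fam210b* was nearest to *Shb* (0.148), *Tead1* (0.156) and *Lats2* (0.162), of which the last 2 encode a transcription factor and a kinase of the Hippo pathway. *Fam19a1* was nearest to *Mapk3* (0.146), which encodes the kinase ERK1, *Golga7b* (0.147) and *Wdpcp* (0.148). *Arhgap29* was nearest to *Nudt4* (0.176), *A930012L18Rik* (0.193) and *Gjc1* (0.203), a connexin gene.

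The families of the 6 genes were then set beside them. The lists were drawn up by family and pathway, with earlier results of these data known, and the genes named from each are those called with the largest differences, so their values illustrate the list and do not stand for it. Calls are by edgeR's quasi-likelihood test with Benjamini-Hochberg adjustment over all genes. Over all genes tested, 25.3% were called higher in hippocampus and 25.6% lower, with a median log2 difference of -0.01. Among 32 tested relatives of *Arhgap29* that carry a RhoGAP domain, 7 were called higher in hippocampus, 9 lower and 16 were not called, with a median log2 difference of 0.05. Both counts are near the shares over all genes. *Arhgap36* was higher (1.62 ± 0.155, adjusted *P* = 3.74e-08) and *Arhgap28* lower (-1.17 ± 0.145, adjusted *P* = 1.08e-06). *Arhgap24* was called higher (1.15 ± 0.293, adjusted *P* = 0.00321), with 33.1, 15.1 and 13.6 CPM in hippocampus of mice 10, 4 and 7 and 5.05 to 10.6 in the other 7. Those 3 libraries also had the highest sums of thalamic markers, at 1350, 584 and 659 CPM against 139 to 238 in the others, and the part of these in the result was not tested. The regions overlapped in *Arhgap24*, as cortex reached 7.34 CPM.

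*Arhgap29* works with Rap1 and Rasip1, and 13 genes of that pathway were tested. Of these, 3 were called higher in hippocampus, 3 lower and 7 were not called, with a median of 0.07, again near the shares over all genes. *Heg1*, a membrane protein gene of endothelium, was higher (0.68 ± 0.096, adjusted *P* = 6.23e-06), as was *Ptpn13*, a phosphatase gene (0.42 ± 0.114, adjusted *P* = 0.00382). *Rasip1* was lower in hippocampus (-0.51 ± 0.095, adjusted *P* = 0.000145), at 32.9 ± 4.12 CPM in cortex and 23.1 ± 4.65 in hippocampus (SD, *n* = 10). *Rasip1* and *Arhgap29* were thus both lower in hippocampus, whereas *Heg1* was higher.

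Of 16 tested DOCK, ELMO and Rac genes beside *Dock5*, 7 were called higher in hippocampus and 4 lower, with a median of 0.25. Over all genes 25.3% were called higher and 25.6% lower. Without mice 3 and 5, whose sex-linked counts went against the label, 4 were called higher. That fit has fewer mice and called 6378 genes between the regions, against 7973 with all mice. *Dock3*, a neuronal exchange factor gene for Rac, was lower in hippocampus (-1.26 ± 0.116, adjusted *P* = 6.91e-08). *Dock4*, another one for Rac and Rap, was higher (1.15 ± 0.118, adjusted *P* = 2.20e-07), and so was *Dock11*, one for Cdc42 (0.75 ± 0.066, adjusted *P* = 1.21e-08). Calls in both directions are common over all genes, so nothing about the family follows from these opposite directions.

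Other TEC kinases, which are immune cell genes, were close to undetected. *Btk*, the one that could be tested, stood at 1.01 ± 0.313 CPM in cortex and 1.02 ± 0.246 in hippocampus (SD, *n* = 10) and did not pass the test (log2 0.00 ± 0.202, adjusted *P* = 0.994). *Bmx* and *Txk* were too low to be tested and reached at most 0.779 and 0.449 CPM in a library.

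Of the TAFA genes, *Fam19a2* was lower in hippocampus, like *Fam19a1*, at 117 ± 12.9 CPM in cortex and 66.7 ± 7.69 in hippocampus (-0.82 ± 0.068, adjusted *P* = 5.95e-09). *Fam19a5* was higher, at 80.8 ± 6.67 and 119.6 ± 7.57 CPM (0.57 ± 0.050, adjusted *P* = 1.33e-08). *Fam19a4*, the next gene after *Fam19a1* on chromosome 6, did not pass the test (0.86 ± 0.379, adjusted *P* = 0.0640). It passed with the mouse as a block (0.66, adjusted *P* = 0.0399), with DESeq2 (0.86, adjusted *P* = 0.0334) and in edgeR without mouse 6 (0.95, adjusted *P* = 0.0499). *Fam19a4* reached 7.37, 3.98 and 3.62 CPM in hippocampus of mice 10, 7 and 4, the libraries with the highest thalamic sums, and 0.555 to 1.54 in the others. *Fam19a3* was not tested and reached at most 2.04 CPM. Per length, *Fam19a5* was the highest TAFA gene in hippocampus at 41.1 RPKM.

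The sugar-transferase relatives of *Wbscr17* were mostly higher in hippocampus. Of 17 tested GALNT and core 1 genes, 11 were called higher, 1 lower and 5 were not called, beside the 25.3% and 25.6% over all genes, with a median of 0.24. The lower one was *C1galt1* (-0.42 ± 0.059, adjusted *P* = 4.99e-06), whose enzyme extends the sugar that GALNT enzymes attach. With mouse 2 or mouse 9 left out, or without the 4 libraries, 2 were called lower. *Galnt16* went from 60.8 ± 9.17 CPM in cortex to 120.7 ± 10.9 in hippocampus (0.99 ± 0.069, adjusted *P* = 6.89e-10). *Galnt15* (1.90 ± 0.237, adjusted *P* = 1.47e-06) and *Galnt6* (1.21 ± 0.311, adjusted *P* = 0.00282) were higher too, at 1.69 and 0.472 CPM in cortex against 6.26 and 1.10 in hippocampus.

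For *Fam210b*, the list held its paralog *Fam210a* and genes of heme synthesis and its mitochondrial transporters. Of 14 tested, 6 were called higher in hippocampus, 2 lower and 6 were not called, with a median of 0.01, beside 50.9% of all genes called either way. *Slc25a37*, the iron importer of mitochondria, was lower (-0.69 ± 0.142, adjusted *P* = 0.000405). *Abcb10*, its partner transporter (0.33 ± 0.062, adjusted *P* = 0.000149), and *Cpox*, an enzyme of the heme pathway (0.32 ± 0.073, adjusted *P* = 0.000855), were higher. *Fam210a* was higher as well (0.31 ± 0.064, adjusted *P* = 0.000344), by less than *Fam210b*. Hippocampus had 20.8 RPKM of *Fam210b* and 3.56 of *Fam210a*.

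**Figure D4:**
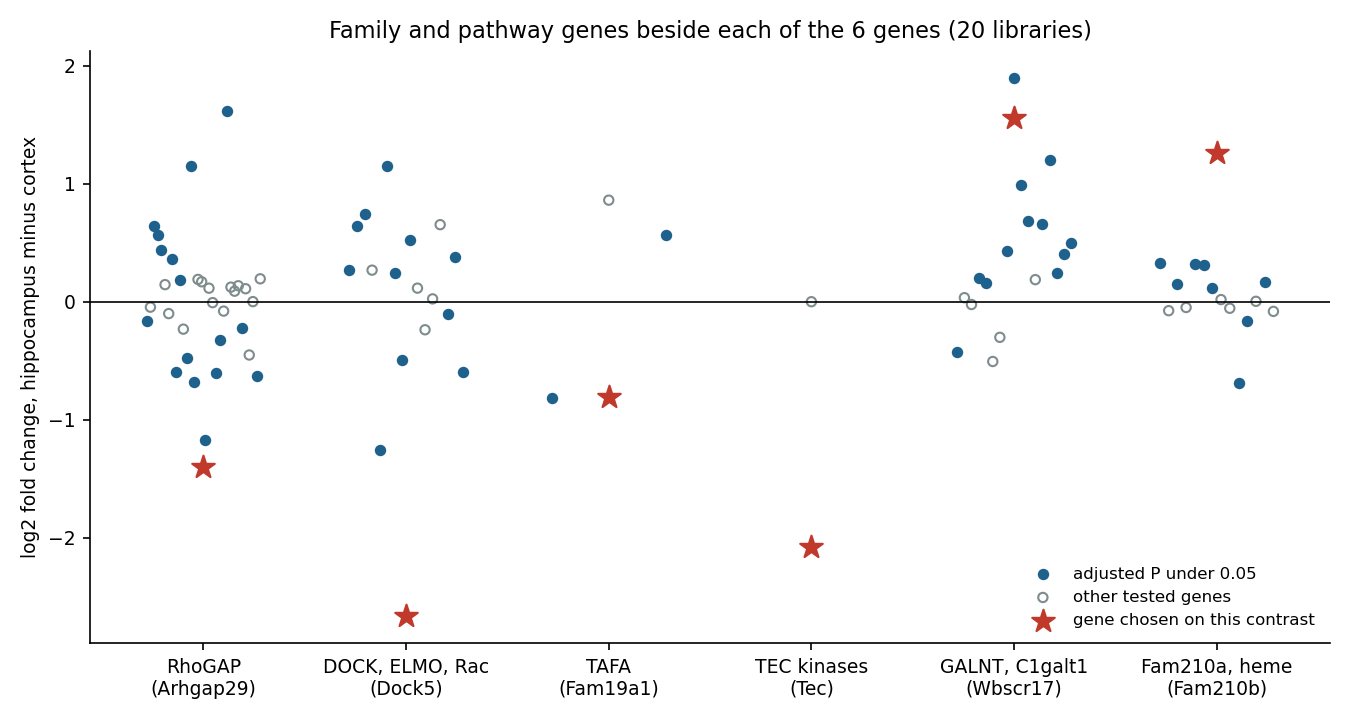
Log2 fold change between hippocampus and cortex (vertical axis, positive where higher in hippocampus) of the tested genes of 6 family or pathway lists (horizontal axis), filled where the adjusted P was under 0.05, with a star for the gene of the 6 that each list belongs to. In the GALNT list of 17 genes, 11 filled points lie above 0 and 1 below, while the DOCK and RhoGAP lists spread to both sides.

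The nearest protein-coding gene on each side was taken as well, and 10 of these 12 neighbours were tested by edgeR. *Abca4*, 27690 bases after *Arhgap29*, was lower in hippocampus like it (-1.68 ± 0.246, adjusted *P* = 8.69e-06), at 3.62 CPM in cortex and 1.15 in hippocampus. Its highest hippocampal value, 3.02 CPM in mouse 7, came from the library in which choroid plexus markers summed to 1970 CPM. *Abcd3*, on the other side, was higher (0.19 ± 0.035, adjusted *P* = 8.43e-05). Beside *Fam210b*, *Mc3r* was higher in hippocampus (2.91 ± 0.421, adjusted *P* = 7.11e-06) at a mean of only 1.10 CPM, with 3.42 and 2.05 CPM in mice 10 and 7, the libraries with the thalamic sums of 1350 and 659 CPM. Their part in the result was not tested. *Aurka*, 441 bases beyond *Fam210b* on the other strand, was higher (0.54 ± 0.153, adjusted *P* = 0.00568). It was not called without mice 3 and 5 (0.44, adjusted *P* = 0.0588), in a fit that called fewer genes in all.

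*Wbscr17* lies between *Caln1*, which was lower in hippocampus (-0.61 ± 0.092, adjusted *P* = 1.69e-05), and *Auts2*, which was higher (0.57 ± 0.069, adjusted *P* = 8.46e-07). *Slain2*, next to *Tec*, was lower (-0.25 ± 0.043, adjusted *P* = 4.17e-05), and *Nefm*, a neurofilament gene next to *Dock5*, was higher (1.05 ± 0.147, adjusted *P* = 1.11e-05), opposite to *Dock5*. Its highest hippocampal values, 411, 332 and 283 CPM, were again those of mice 10, 7 and 4, with 194 to 251 in the others and 69.2 to 167 in cortex, and the part of the thalamic sums in this was not tested. *Suclg2*, before *Fam19a1*, was higher (0.27 ± 0.089, adjusted *P* = 0.0156), but its adjusted *P* was 0.0593 without mouse 3 and 0.0577 without mouse 10. The other neighbours of *Tec* and *Dock5*, *Txk* and *Gnrh1*, reached at most 0.449 and 0.130 CPM.

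The genotype contrast was not used to choose the 6 genes and could be tested. No difference between *Ube3aOE* and WT mice was detected for any of them in either tissue. By edgeR, 0 of the 6 were called in hippocampus, where 1 of 15220 genes was (0.00657%), and 0 in cortex, where 1 of 14947 was (0.00669%). That gene was *Ube3a* (log2 1.32 and 1.31). DESeq2 called 1 gene in hippocampus and 4 in cortex, and likewise none of the 6. At an unadjusted *P* under 0.05, 1098 genes (7.21%) passed in hippocampus and 663 (4.44%) in cortex, and of the 6 genes 1 passed, *Wbscr17* in cortex. The libraries of the genotypes overlapped for all 6 genes in both tissues, whereas they did not for 1.12% of genes in hippocampus and 0.676% in cortex.

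*Wbscr17* averaged 44.3 ± 4.25 CPM in WT cortex and 51.6 ± 7.93 in *Ube3aOE* cortex (SD, *n* = 5). The log2 difference was 0.22 with a 95% confidence interval of 0.00 to 0.44, and an adjusted *P* of 0.960 by edgeR. Without the 4 libraries that stood apart, which include the *Ube3aOE* cortex of mice 8 and 9, it was 0.09. In hippocampus *Wbscr17* averaged 142 ± 21.7 and 140.3 ± 22.5 CPM, a log2 difference of -0.02 (-0.31 to 0.27).

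*Fam19a1*, *Arhgap29* and *Fam210b* had narrower intervals in each tissue than *Wbscr17*, which was well counted too. For *Fam19a1*, the log2 difference was -0.07 (-0.23 to 0.08) in hippocampus and -0.06 (-0.21 to 0.08) in cortex. *Arhgap29* had -0.01 (-0.24 to 0.23) and 0.01 (-0.20 to 0.21), and *Fam210b* -0.04 (-0.26 to 0.17) and 0.08 (-0.13 to 0.29). As ratios of *Ube3aOE* to WT, the intervals of these 3 genes run from 0.837-fold to 1.22-fold. The intervals of the low genes were wider. *Tec* had 0.15 (-0.29 to 0.59) in hippocampus and -0.20 (-0.52 to 0.12) in cortex, and *Dock5* 0.35 (-0.12 to 0.82) and -0.15 (-0.59 to 0.30). The adjusted *P* values by edgeR were 0.698 to 0.986 in hippocampus and 0.960 to 1.00 in cortex.

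**Figure D5:**
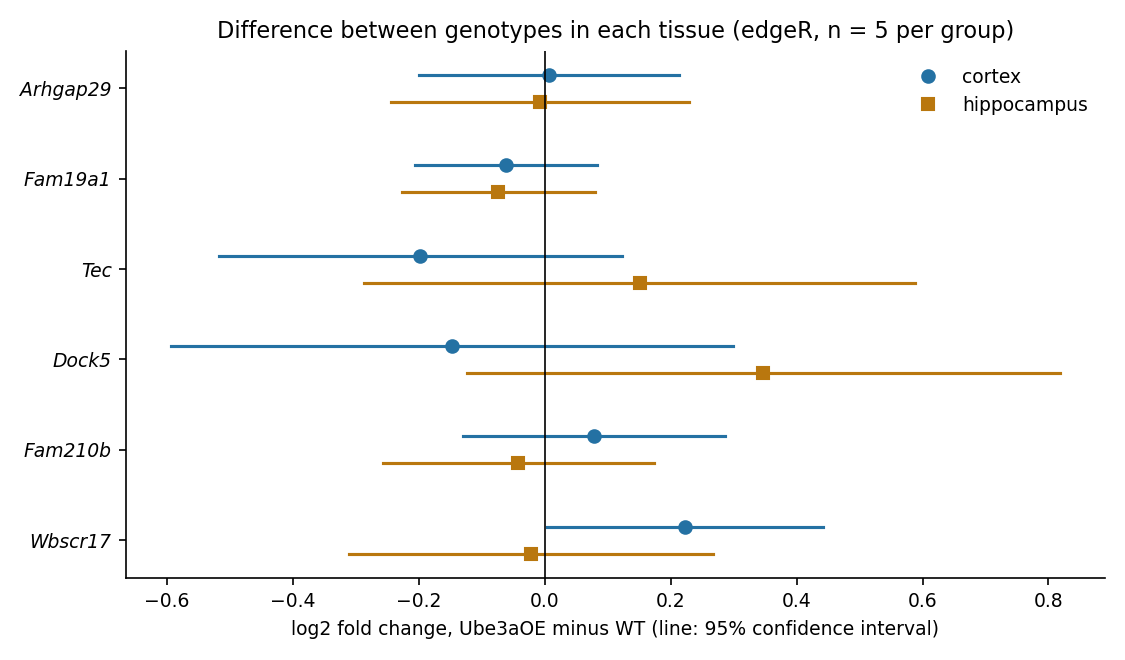
Log2 fold change between Ube3aOE and WT mice (horizontal axis) with its 95% confidence interval for the 6 genes (vertical axis), in cortex (circles) and hippocampus (squares), n = 5 per group. Of the 12 intervals, 11 span 0, that of Wbscr17 in cortex starts just above it, and that of Dock5 in hippocampus is the widest, from -0.12 to 0.82.

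Whether the regional difference itself differed between the genotypes was tested as an interaction. By edgeR 0 of 15661 genes were called (0.0%), as by DESeq2, and 590 (3.77%) had an unadjusted *P* under 0.05, none of the 6 among them. *Dock5* had the largest estimate of the 6: its log2 regional difference was -2.91 in WT and -2.42 in *Ube3aOE* mice, which differ by 0.50 (-0.15 to 1.14). For *Tec* the values were -2.26 and -1.90, which differ by 0.35 (-0.16 to 0.86). For *Wbscr17* they were 1.68 and 1.44, with a difference of -0.24 (-0.61 to 0.13). Without the 4 libraries the estimates were 0.20 for *Dock5*, 0.28 for *Tec* and -0.12 for *Wbscr17*. With a mouse left out, that of *Wbscr17* ran from -0.37 to -0.07. The remaining estimates were -0.11 for *Fam210b*, -0.01 for *Arhgap29* and -0.01 for *Fam19a1*, with adjusted *P* values of 0.997 to 0.998 over the 6 genes.

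Labelled sex was compared within each tissue after the data were seen. *Dock5* was 10.1 to 15.8 CPM in cortex of the 5 mice labelled female and 7.70 to 10.0 in the 5 labelled male. *Tec* was 7.79 to 9.43 and 5.31 to 7.40 CPM. Neither gene overlapped between the labelled sexes, which held for 0.95% of genes, and the other 4 genes overlapped. This separation is by label only. Mouse 5, labelled female, had 14.1 CPM of *Dock5* and 9.03 of *Tec* in cortex, and mouse 3, labelled male, had 9.46 and 6.41. By their sex-linked counts mice 3 and 5 would change sides, and both genes would then overlap. Neocortical marker sums in cortex also went largely with the label. They were 814, 868, 623 and 719 CPM in mice 2, 3, 8 and 9, labelled male, and higher in every mouse labelled female. Mouse 6, labelled male, had the highest sum, 1046 CPM. *Rorb* and *Cux2*, the nearest profiles of *Dock5* and *Tec*, are among these markers. The part of these sums in the difference by label was not tested. The log2 difference, male minus female, was -0.60 ± 0.130 (SE) for *Dock5* and -0.39 ± 0.114 for *Tec*. Neither passed the test by edgeR (adjusted *P* = 0.613 for each), by which 0 of 14947 genes (0.0%) were called and 1180 had an unadjusted *P* under 0.05, with *Dock5*, *Tec*, *Arhgap29* and *Fam210b* among them.

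Mice 3 and 5, whose sex-linked counts went against the label, were then left out. In cortex the differences were -0.63 for *Dock5* and -0.36 for *Tec*, with 4 mice of each label, and *Arhgap29* at -0.33 no longer overlapped either. Without these mice 3.15% of genes did not overlap and 0.0468% were called, none of the 6 among them (adjusted *P* by edgeR 0.562 or above). The cortex libraries of mice 2, 8 and 9, with their low neocortical sums, stay in this comparison. In hippocampus, with all 10 mice, the 6 genes overlapped between the labelled sexes, where 0.834% of genes did not and 0.00657% were called. With all 10 mice the hippocampal differences were -0.05 for *Dock5* and -0.11 for *Tec*, and without mice 3 and 5, where 3.11% of genes did not overlap, the 6 genes overlapped as well. Whether the difference by label itself differed between the tissues was not tested. Each labelled sex held both genotypes.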

How the data were processed

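RNA was extracted with the RNeasy mini plus kit, and libraries were prepared with a TruSeq stranded mRNA kit. The deposited values are raw counts of reads per gene, which the authors made with HTSeq 0.11.2 after alignment with HISAT2 2.1.0 to GRCm38, per the submitters' processing notes. The annotation release and the strand setting of the counting are not given in the sources used here. Of 47729 genes, 28659 had a count. The 5 lines of reads not on genes were left out, and 69.7% to 81.2% of reads were on genes.

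Counts were filtered with filterByExpr, normalised by TMM and fitted with the robust quasi-likelihood *F* test of edgeR 4.0.16 in R 4.3.3, with Benjamini-Hochberg adjustment over all genes tested and a threshold of 0.05. All 20 libraries entered the regional comparison and the interaction, and 10 each genotype comparison. DESeq2 1.42.0, its size factors, no filter, a mouse block and each mouse left out were the alternatives. Omission of 4 libraries or 2 mice and the comparison of labelled sex were added after seeing the data. RPKM used the summed exon length in GENCODE M21, which held 47224 of the gene IDs. Samples with the same number came from the same mouse, as the labels state. Their deviations from the group means correlated over genes with a median *r* of 0.215, above 0.1 in 9 of 10 mice. The 6 genes and the lists were chosen with earlier results of these data known. Named besides the 6 were *Ube3a*, the 3 nearest profiles, the nearest coding gene on each side, and in each list up to 3 called genes of largest difference, or every tested gene of a list of at most 5. *C1galt1*, *Fam210a*, *Chst11* and *Camk1* were named after their values were seen. The scripts were tested on simulated data. Read counts without molecular identifiers are not independent molecules.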

Additional observations from a re-analysis of the deposited data

Results flagged for a closer look

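For each of the 6 genes and 4 groups, the gap of the highest or lowest of the 5 libraries to its nearest neighbour was set against the range of the group, and 5 of the 24 gene and group pairs exceeded Dixon's 95% critical value of 0.71. Chance alone passes about 1 in 20 groups, and the genes of a library are not independent.

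A pair of these are the low hippocampal libraries. *Wbscr17* was 103.8 CPM in WT hippocampus of mouse 2, with the nearest other library at 149 CPM. *Fam210b* was 59.2 CPM in *Ube3aOE* hippocampus of mouse 9, with the nearest at 75.6 CPM. These 2 libraries had the lowest hippocampal marker sums of their groups, 325 and 367 CPM. The other 3 are high values. *Fam210b* was 38.3 CPM in WT cortex of mouse 3, against 29.6 for the nearest, and mouse 3 is 1 of the 2 mice whose sex-linked counts went against the label. *Dock5* was 15.8 CPM in *Ube3aOE* cortex of mouse 10, against 10.1. *Tec* was 2.58 CPM in *Ube3aOE* hippocampus of the same mouse, against 1.83, in the library with a thalamic marker sum of 1350 CPM. Their part in these values was not tested.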

How the results depend on the processing

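The regional log2 differences of the 6 genes kept direction and call in all 96 alternative values. The 6 genes were chosen on this contrast in these libraries, so nothing follows from that. No genotype or interaction value of a gene of the 6 was called in any alternative. The smallest adjusted *P* among those values was 0.461 by edgeR (*Dock5* in hippocampus without mouse 6). Genes called between regions numbered 7284 to 7980 with a mouse left out, genes called between genotypes stayed at 1 in each tissue, and the interaction stayed at 0. DESeq2 called 4 genes between genotypes in cortex. With the mouse as a replicate block, which pairs the tissues, 8737 genes were called between regions, and the interaction of *Arhgap29* turned to 0.0105; beside *Fam19a4*, the block changed no call of a named gene.

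Estimates near 0 changed sign. With a mouse left out, the genotype log2 difference in hippocampus ran from -0.0714 to 0.0579 for *Arhgap29*, -0.109 to 0.0327 for *Fam210b* and -0.111 to 0.0703 for *Wbscr17*, and in cortex from -0.0603 to 0.0588 for *Arhgap29*. The interaction ran from -0.0855 to 0.0842 for *Arhgap29* and -0.0270 to 0.0237 for *Fam19a1*, and the regional difference of *Btk* from -0.0576 to 0.141. Without mice 3 and 5, the hippocampal values were 0.0627 for *Fam210b* and 0.0646 for *Wbscr17*, and the interaction of *Fam19a1* was 0.0257. Without the 4 libraries, the values were 0.0449 for *Arhgap29* in hippocampus, 0.0168 for *Dock5* in cortex and 0.00790 for the interaction of *Fam19a1*. The cause was not tested. In WT hippocampus, counting alone gives a coefficient of variation of 18.6% for *Tec* and 20.0% for *Dock5*, beside 19.4% and 16.2% between libraries. In WT cortex it gives 8.57% and 6.85%, beside 15.3% and 25.6%.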
